A study of Mus musculus with 46 samples.

Results

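The 10 genes described here make bile acids in the liver, join them to amino acids, take them back up from portal blood, or set how much is made: Cyp7a1, Cyp8b1, Cyp27a1, Cyp7b1, Slc27a5, Baat, Slc10a1, Nr1h4, Nr0b2 and Fgfr4. They were chosen by symbol, for their place in the pathway, from the 25494 rows of the RNA-seq count table, and all 10 were found there and passed the filter on low counts. Livers came from male C57BL/6 mice with no transgene or mutation named in the labels, received at 5 weeks of age, kept 1 week on chow and then fed for 20 weeks either a lipid-rich diet (LD, labelled high fat), with 60% of its energy as lipid, or a carbohydrate-rich diet (CD, labelled low fat), with 70% of its energy as carbohydrate. There was no chow-fed group, so every difference is between these defined diets. RNA-seq covered 5 mice per diet, ChIP-seq of H3K27ac 3 livers per diet and of Hnf4α and C/EBPα 2 per diet each, and PCHi-C 2 per diet, which the authors pooled. The labels do not tie a replicate of one assay to a replicate of another. In bulk liver, fewer cells of a type and less RNA per cell cannot be told apart.

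Bile acids are made from cholesterol by a classical route, which opens with Cyp7a1, and by an alternative route, which opens with Cyp27a1 and continues with Cyp7b1. Cyp8b1 adds the hydroxyl group that turns the product into cholic acid. Bile acids that return to the hepatocyte activate the nuclear receptor FXR (gene Nr1h4), which induces the corepressor SHP (Nr0b2), and intestinal FGF15 signals through Fgfr4 and its partner β-Klotho (Klb). Both arms restrain Cyp7a1 and Cyp8b1. Hnf4α and C/EBPα are transcription factors of hepatocytes, H3K27ac marks active promoters and enhancers, and PCHi-C records which distant restriction fragments are ligated to a captured promoter fragment, the bait.

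RNA libraries held 31707963 to 39012699 counted read pairs, and levels are given as CPM, the counts scaled to a common library total. By edgeR's quasi-likelihood test, with a call at a Benjamini-Hochberg adjusted p under 0.05 over all 13494 rows tested and a fold above 1.2, 3 members fell on LD (Cyp7b1, Slc10a1 and Cyp27a1) and 1 rose (Cyp8b1). Over all rows tested, 24.9% were called, 11.1% lower on LD and 13.8% higher. The median log2 fold change (LD over CD) was -0.29 over the members and -0.0019 over all rows tested. In 4 members, Slc27a5 with the 3 that fell, all 5 LD mice lay below all 5 CD mice in CPM, a pattern seen in 8.35% of rows tested. In TPM, the level per length of transcript, the diets overlapped for Slc27a5. No member had all LD mice above all CD mice, a pattern of 10.2% of rows. In the liver of LD replicate 5, 7 members had their lowest LD value in CPM (Cyp7a1, Cyp27a1, Cyp7b1, Slc27a5, Baat, Slc10a1 and Nr1h4). This mouse had the largest TMM factor (1.08), and it was kept in every value unless its omission is named.

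**Figure D1:**
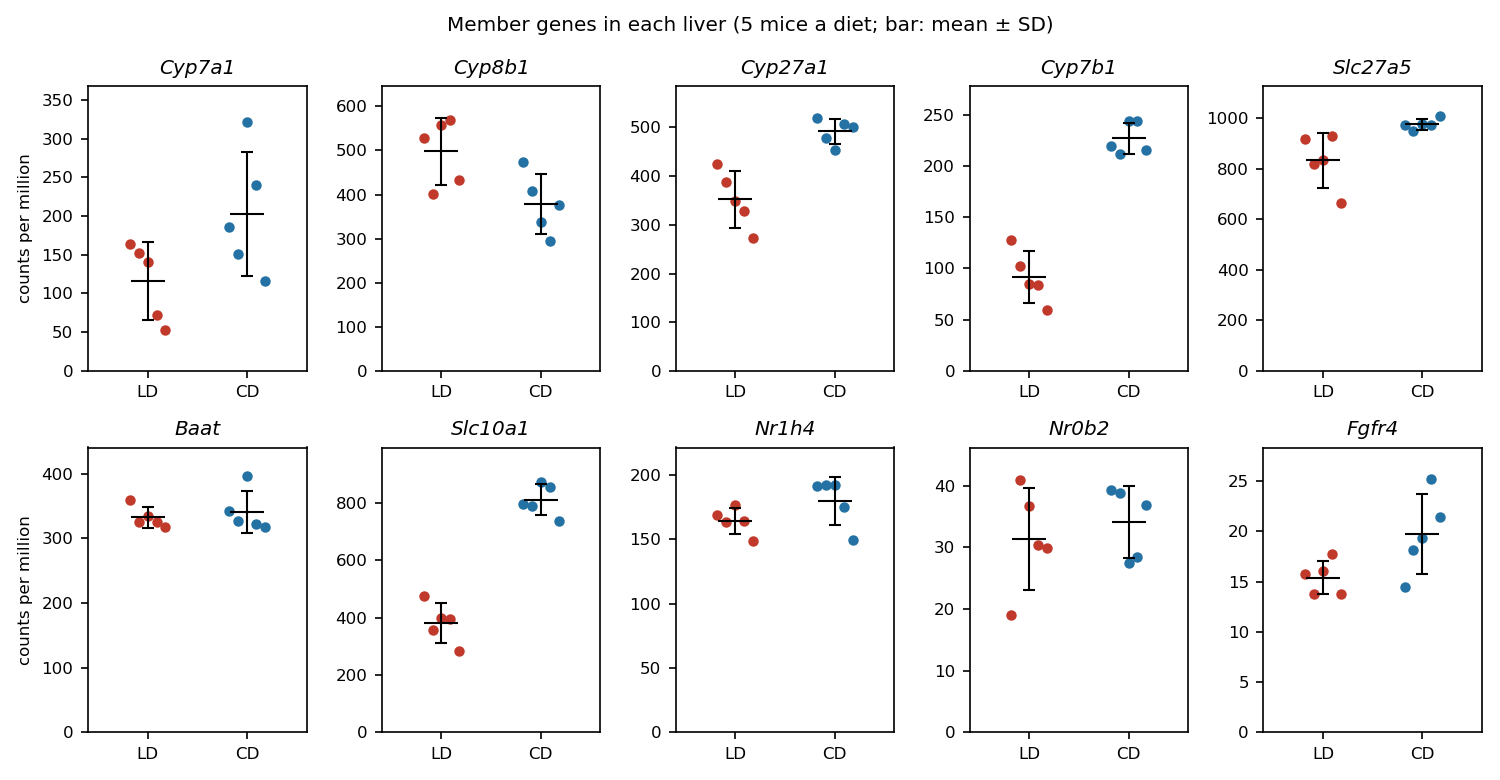
CPM of the 10 genes in each mouse (red, LD; blue, CD; 5 mice a diet; black bars, mean ± SD; each y axis starts at 0). The diets do not overlap for Cyp27a1, Cyp7b1, Slc27a5 and Slc10a1, and overlap for the other 6 genes.

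**Figure D2:**
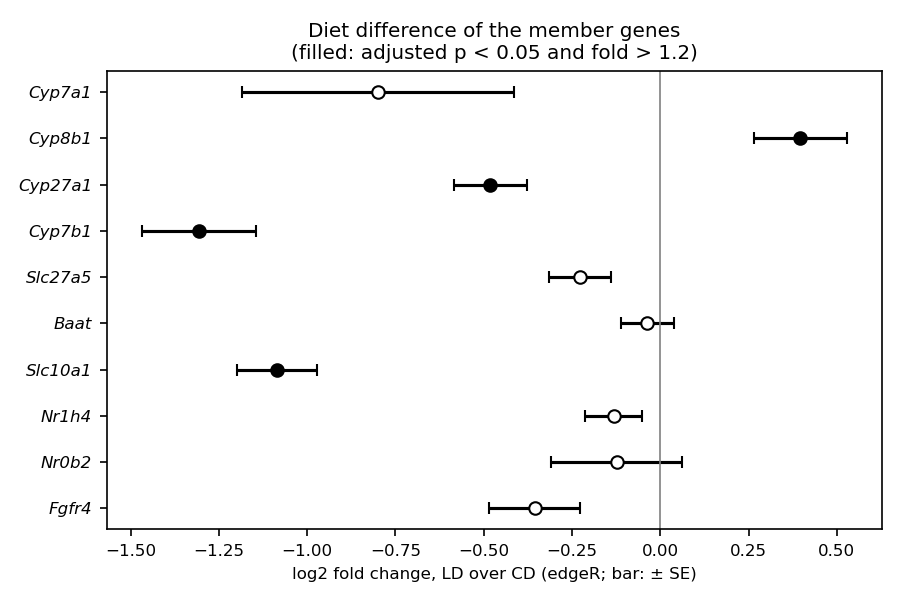
Log2 fold change of each gene, LD over CD, from edgeR, with its standard error; filled points passed the call. Cyp7b1 (-1.31), Slc10a1 (-1.09) and Cyp27a1 (-0.48) lie below 0 and Cyp8b1 (0.40) above it, while the open points include Cyp7a1 (-0.80), which has the widest error.

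Cyp7a1 (mm9, chr4:6192759-6202778, minus strand), cholesterol 7α-hydroxylase, is the rate-limiting enzyme of the classical route. Its level was 164, 152, 141, 72.7 and 52.2 CPM in the LD mice and 186, 151, 321, 240 and 116 CPM in the CD mice. The diets overlapped, because 3 of the LD mice lay within the range of the CD mice, and the mice of each diet differed more for this gene than for any other member (coefficient of variation 43.4% on LD and 39.7% on CD). The LD mean was 116 ± 50.5 CPM and the CD mean 203 ± 80.4 CPM (SD, n = 5 each), and the log2 fold change of -0.80 (SE 0.386) did not pass the test (edgeR adjusted p = 0.160).

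Cyp8b1 (chr9:121823474-121825423, minus strand), sterol 12α-hydroxylase, had 529, 402, 557, 569 and 433 CPM in the LD mice. The CD mice had 474, 409, 337, 295 and 376 CPM. The highest values were those of 3 LD mice, and the other LD mice lay among the upper CD mice. The mean rose from 378 ± 68.2 CPM (SD, n = 5) on CD to 498 ± 75.7 CPM (SD, n = 5) on LD, a log2 fold change of 0.40 (SE 0.131, edgeR adjusted p = 0.0378). This call rested on most of the mice: without 1 library at a time, 7 of 10 fits no longer made it, with adjusted p from 0.0513 to 0.0914 and log2 fold changes from 0.32 to 0.43 in those 7, and in the test of a fold above 1.2 (adjusted p = 0.281).

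The promoter of Cyp8b1 is shown because it lies under an Hnf4α peak and, of the 10 genes, only its promoter and that of Baat hold a match to CAAAGTCCA. The stretch is the 200 bases before the annotated start in mm9, read on the strand of the gene (chr9:121825424-121825623, minus). Capitals mark matches to CAAAGTCCA, a string bound by Hnf4α, and to CAAGGNCA, a string bound by Nr5a2 (LRH-1), on either strand.
Cyp8b1: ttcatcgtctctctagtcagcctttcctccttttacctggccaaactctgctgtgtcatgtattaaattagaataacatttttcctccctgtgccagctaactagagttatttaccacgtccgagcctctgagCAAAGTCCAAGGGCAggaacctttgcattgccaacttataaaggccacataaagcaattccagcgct
The match to CAAAGTCCA begins 67 bases before the start, and a match to CAAGGNCA begins 60 bases before it and overlaps the first. Among the 200-base stretches before the starts of 24406 genes, 0.348% held CAAAGTCCA and 3.82% held CAAGGNCA. Here and below a match is a description of the letters only, and CAAGGNCA and TTGCAA were chosen after the stretches had been seen.

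By ChIP-seq, the Hnf4α peak of Cyp7a1, centred 156 bases upstream of the start, was 161 and 132 normalized tags high on LD, against 82.5 and 172 on CD, and its mean height was above that of 96.8% of fitted Hnf4α loci. The LD samples lay between the CD samples. The Hnf4α peak of Cyp8b1, 55 bases upstream, was 84.0 and 89.2 high on LD, against 35.5 and 84.2 on CD, and CD replicate 2 was level with LD replicate 1. A further Hnf4α peak, 4187 bases upstream of Cyp8b1, had 80.0 and 53.5 on LD, against 28.0 and 48.0 on CD, so that both LD samples were higher. Hnf4α CD replicate 1 had the lowest median height of the 4 samples (21.5 against 33.5 to 42.8 at the fitted loci) and the fewest peaks (35143 against 44247 to 47992), and its part in these differences was not tested. None of these heights differed by limma (adjusted p = 0.99979).

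Cyp27a1 (chr1:74760109-74784471, plus strand), mitochondrial sterol 27-hydroxylase, opens the alternative route and also oxidises the side chain in the classical one. Its level was 426, 387, 349, 328 and 272 CPM in the LD mice and 520, 479, 455, 508 and 500 CPM in the CD mice. The diets were fully apart. The mean fell from 492 ± 25.8 CPM (SD, n = 5) on CD to 352 ± 58.4 CPM (SD, n = 5) on LD, with a log2 fold change of -0.48 (SE 0.103, edgeR adjusted p = 0.00394). The call held in all 10 fits without 1 library and was lost in the test of a fold above 1.2 (adjusted p = 0.0623).

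Cyp7b1 (chr3:17971950-18143338, minus strand), oxysterol 7α-hydroxylase, acts after Cyp27a1 in the alternative route and had the largest fold change of the 10 genes. The LD mice had 128, 102, 84.7, 83.8 and 59.8 CPM. The CD mice had 220, 212, 244, 244 and 216 CPM. The highest LD mouse was well below the lowest CD mouse. The mean fell from 227 ± 15.5 CPM (SD, n = 5) on CD to 91.7 ± 25.4 CPM (SD, n = 5) on LD, with a log2 fold change of -1.31 (SE 0.161, edgeR adjusted p = 0.000202), and the call held in every alternative run.

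H3K27ac was also read around Cyp7b1. The window of the gene with 20 kb on either side was covered by H3K27ac peaks to 15.6%, 10.3% and 7.75% in the LD livers and to 16.6%, 16.6% and 17.9% in the CD livers. All 3 CD livers were higher, by a small margin over LD replicate 1. An H3K27ac locus in an intron of Cyp7b1 (chr3:18104601-18107599), centred 37238 bases downstream of the start, had a peak in all 3 CD livers and in no LD liver. Upstream, the locus at chr3:18149601-18155799 held 4798, 799 and 2998 bases of peaks in the LD livers and 5798, 4598 and 5599 in the CD livers, so that LD replicate 1 lay between the lowest and highest CD values.

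Within that upstream locus, 8030 bases before the Cyp7b1 start and between genes, the C/EBPα peak was 14.0 and 28.5 normalized tags high on LD, against 95.0 and 64.5 on CD. Both CD samples stood well above both LD samples. It was the only member locus called by limma (log2 fold change -1.97, SE 0.419, adjusted p = 0.00145), against a median of -0.41 over all 13813 C/EBPα loci fitted. With the sample medians set equal the log2 fold change was -1.66 (limma adjusted p = 2.25e-06). When 1 of the 4 samples was left out the call was lost (limma adjusted p 0.151 to 0.903), with log2 fold changes from -2.48 to -1.46, and the lone sample of a diet is then assumed to vary like the others. The Hnf4α peak beside it, 7879 bases upstream of the start, was 68.2 and 35.5 high on LD, against 34.0 and 43.5 on CD, and the diets overlapped. The C/EBPα peak 632 bases upstream of Cyp27a1 had 74.5 and 63.5 on LD, against 136 and 122 on CD. Both CD samples were higher there, but the log2 fold change of -0.90 was not called (limma adjusted p = 0.118). With equal medians it was -0.59 and passed (limma adjusted p = 0.0106).

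The central 100 bases of both C/EBPα peaks are shown because both were lower on LD in each sample and lie upstream of the alternative route enzymes that fell. They were read from mm9 on the strand of each gene (chr3:18151318-18151417, minus, and chr1:74759427-74759526, plus), and no base of either is annotated as exonic. Capitals mark matches to TTGCAA in the first and to TTGCNNAA in the second, strings bound by C/EBP factors, on either strand.
Cyp7b1: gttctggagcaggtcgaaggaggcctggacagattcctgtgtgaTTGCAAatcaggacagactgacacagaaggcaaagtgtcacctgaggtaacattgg
Cyp27a1: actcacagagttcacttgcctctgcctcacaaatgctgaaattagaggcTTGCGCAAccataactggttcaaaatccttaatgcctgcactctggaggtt
At the centre of C/EBPα loci with a peak in all 4 samples, 12.2% of windows held TTGCAA and 41.7% held TTGCNNAA. Among the 34 member loci, 6 held the first string and 14 the second (17.6% and 41.2%).

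Slc27a5 (chr7:13573696-13583541, minus strand), the ligase that makes bile acyl-CoA, had 919, 819, 833, 930 and 662 CPM in the LD mice and 971, 947, 978, 971 and 1007 CPM in the CD mice. All LD mice were below all CD mice in CPM, although LD replicate 4 came close to the lowest CD mouse. In TPM the diets overlapped, at 585 to 746 on LD and 707 to 776 on CD. The LD mean was 832 ± 107 CPM and the CD mean 975 ± 21.6 CPM (SD, n = 5 each), and the log2 fold change of -0.23 (SE 0.0887) was not called (edgeR adjusted p = 0.0708). It was called without LD replicate 4 (adjusted p = 0.0440).

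Baat (chr4:49502290-49519430, minus strand), which joins bile acyl-CoA to taurine or glycine, had the smallest difference of the 10 genes. Its level was 318 to 360 CPM on LD (median 325) and 318 to 396 CPM on CD (median 326), and the diets overlapped. The log2 fold change was -0.04 (SE 0.0754, edgeR adjusted p = 0.754) and turned to 0.04 on log2(TPM + 1) and to 0.02 without CD replicate 3.

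Slc10a1 (chr12:82054172-82069066, minus strand), the sodium-dependent carrier NTCP, takes conjugated bile acids from portal blood into the hepatocyte. The LD mice had 475, 357, 400, 396 and 285 CPM. The CD mice had 797, 791, 873, 855 and 739 CPM. The lowest CD mouse was above the highest LD mouse by more than the spread within either diet. The mean fell from 811 ± 54.0 CPM (SD, n = 5) on CD to 382 ± 69.2 CPM (SD, n = 5) on LD, a log2 fold change of -1.09 (SE 0.113, edgeR adjusted p = 3.44e-05), and the call held in every alternative run. H3K27ac peaks covered 61.6%, 55.7% and 54.6% of its window in the LD livers and 65.3%, 65.2% and 64.5% in the CD livers, with no overlap of the diets.

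At the Slc10a1 start, the C/EBPα peak was 29.5 and 29.5 normalized tags high on LD, against 57.5 and 38.0 on CD, and the log2 fold change of -0.66 was not called (limma adjusted p = 0.321). A C/EBPα peak 22578 bases downstream of the start had 15 and 28.0 on LD, against 53.0 and 45.5 on CD. It lies beyond the end of the gene, and 47 of its central 100 bases are annotated as exonic. Both CD samples were higher at each, the second with a log2 fold change of -1.26 (limma adjusted p = 0.0763), which was -0.95 and passed with equal sample medians (limma adjusted p = 0.0112). The tallest Hnf4α peak of all member windows stood 8039 bases upstream of Slc10a1, with 194 and 164 on LD, against 150 and 265 on CD, and the LD samples lay between the CD samples. The promoters of Slc10a1 and Baat (200 bases before the start, mm9, chr12:82069067-82069266 and chr4:49519431-49519630, both minus) are shown with matches to TTGCNNAA in the first and CAAAGTCCA in the second in capitals, the other strings of this report having no match there.
Slc10a1: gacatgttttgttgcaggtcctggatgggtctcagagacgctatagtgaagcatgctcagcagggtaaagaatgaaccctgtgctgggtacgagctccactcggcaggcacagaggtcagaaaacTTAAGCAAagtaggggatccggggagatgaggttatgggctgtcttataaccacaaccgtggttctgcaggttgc
Baat: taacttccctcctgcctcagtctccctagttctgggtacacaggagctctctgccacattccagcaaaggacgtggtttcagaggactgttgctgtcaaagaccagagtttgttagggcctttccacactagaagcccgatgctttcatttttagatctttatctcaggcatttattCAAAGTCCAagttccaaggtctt
The matches in capitals begin 75 and 23 bases before the start. A further TTGCNNAA match begins at base 39 of the central 100 bases of the C/EBPα peak at the Slc10a1 start. That match spans the start, so the stretch shown ends within it. TTGCNNAA was held by 6.96% of the 200-base stretches before all gene starts. The Hnf4α peak over the Baat start had 53.8 and 43.0 on LD, against 29.8 and 65.5 on CD, and the diets overlapped.

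None of the 3 regulators was called. Nr1h4 (chr10:88916979-88996367, minus strand), the bile acid receptor FXR, ranged from 148 to 176 CPM in LD mice (median 164) and 149 to 192 CPM in CD mice (median 192), a log2 fold change of -0.13 (SE 0.0807, edgeR adjusted p = 0.248). Nr0b2 (chr4:133109291-133112601, plus strand), its target SHP, ranged from 19.0 to 40.9 CPM in LD mice and 27.4 to 39.4 CPM in CD mice, a log2 fold change of -0.12 (SE 0.186, edgeR adjusted p = 0.666) that turned to 0.01 without LD replicate 1. The diets overlapped for both genes. Fgfr4 (chr13:55254179-55270120, plus strand), the hepatic FGF15 receptor, had 15.8, 13.7, 16, 17.7 and 13.8 CPM in the LD mice and 14.5, 18.1, 19.3, 25.2 and 21.4 CPM in the CD mice. CD replicate 1 lay among the LD mice, and the other 4 CD mice were above all LD mice. Its log2 fold change of -0.36 (SE 0.128) missed the threshold (edgeR adjusted p = 0.0540) and passed with DESeq2 (adjusted p = 0.0384), without LD replicate 4 (edgeR adjusted p = 0.0430) and without CD replicate 1 (edgeR adjusted p = 0.00982).

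Per length of transcript (TPM, the scale on which genes can be compared), Slc27a5 had the highest level of the 10 genes on both diets (675 ± 63.0 TPM on LD and 752 ± 27 TPM on CD, SD, n = 5) and Fgfr4 the lowest (9.26 ± 0.780 and 11.3 ± 2.50 TPM). Of the 5 CD columns of TPM, 1 carries a replicate number that the labels do not give and was read as CD only. Slc10a1 was second on CD (693 ± 57.0 TPM), where its mice (630.5 to 755 TPM) overlapped those of Slc27a5 (707 to 776 TPM). On LD it was below Cyp8b1 and Cyp27a1 (343 ± 55.4 TPM). There it was level with Cyp27a1 (344 ± 51.0 TPM) and Baat (324 ± 19.4 TPM) within their spread. Cyp8b1 was second on LD (483 ± 64.4 TPM) and below Cyp27a1 on CD (347 ± 53.9 TPM), within the spread of Baat (315 ± 31.5 TPM) there. Cyp7b1 was above Nr1h4 on CD (188 ± 15.9 against 138 ± 14.6 TPM) and below it on LD (79.9 ± 21 against 133 ± 6.03 TPM). Cyp7a1 (52.5 ± 22.3 TPM) and Nr0b2 (46.3 ± 11.9 TPM) did not differ beyond their spread on LD.

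Other genes of the pathway were read from lists chosen for their roles, with earlier results of these data known. Over all rows tested, 13.8% were called higher on LD and 11.1% lower, for comparison with each list. Of 14 other synthesis enzymes tested, 2 rose on LD and 2 fell. Cyp2c70, which makes the muricholic acids of mice, fell from 451 ± 76.7 to 162 ± 29.3 CPM (SD, n = 5; log2 fold change -1.48, SE 0.140, edgeR adjusted p = 2.48e-05), and Hsd3b7, the 3β-dehydrogenase common to both routes, was not called (log2 fold change -0.11, edgeR adjusted p = 0.369). The enzymes that rose had log2 fold changes of 0.62 and 0.33, and the other that fell had -0.34. Of 13 bile acid and biliary lipid transporters, 3 rose and 4 fell. Abcb11, the canalicular bile salt export pump, fell from 936 ± 49.7 to 579 ± 35.3 CPM (SD, n = 5; log2 fold change -0.69, SE 0.0707, edgeR adjusted p = 2.87e-05). Abcb4, the canalicular phospholipid exporter, rose by a log2 fold change of 0.77 (edgeR adjusted p = 0.000227). The other 2 that rose had log2 fold changes of 1.01 and 1.23, and the other 3 that fell -0.55, -0.38 and -0.31.

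Of 18 other regulators tested, 2 rose and 4 fell, beside 13.8% and 11.1% of all rows tested. Klb, the coreceptor of Fgfr4, fell from 70.2 ± 5.68 to 48.8 ± 7.98 CPM (SD, n = 5), with a log2 fold change of -0.52 (SE 0.104, edgeR adjusted p = 0.00254). Nr5a2, an activator of Cyp7a1 and Cyp8b1, fell by a log2 fold change of -0.31 (edgeR adjusted p = 0.00190), and Ppargc1a, a coactivator, by -0.73 (adjusted p = 0.000701). Nr1i3, the xenobiotic receptor CAR, rose by 0.67 (adjusted p = 0.00984). Hnf4a itself went from 478 ± 19.3 on CD to 399.8 ± 34.7 CPM (SD, n = 5), a log2 fold change of -0.26 that passed the adjusted p (0.0176) and missed the fold of 1.2. Of 10 genes of cholesterol supply, 2 rose and 3 fell, the latter with log2 fold changes of -0.60, -0.41 and -0.29.

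Marker lists of liver cell types are given beside these values, and their part in the differences was not tested. The shares over all rows tested were 13.8% higher on LD and 11.1% lower. The hepatocyte markers, 9 tested, had 1 gene higher on LD and 4 lower, and their summed level was 104050 to 120100 CPM on LD and 116850 to 128660 CPM on CD. The cholangiocyte list had 1 of 7 called, Spp1, higher on LD (66.5 ± 28.4 against 16.8 ± 4.77 CPM, SD, n = 5), which makes up most of its sum of 46.9 to 123 CPM on LD and 19.9 to 33.7 CPM on CD. Krt19, Krt7 and Sox9 were each under 2 CPM on both diets and were not called (log2 fold changes 0.17, -0.60 and 0.23). Spp1 and these 3 genes were named after their values were seen. The macrophage list had 2 of 10 higher (263 to 748 CPM on LD and 280 to 516 CPM on CD), the stellate cell list 3 of 9 higher (730 to 1057 CPM and 631 to 768 CPM), the lymphocyte list 2 of 9 higher and 1 lower (31.1 to 72.1 CPM and 25.0 to 32.3 CPM), and the endothelial list 1 of 8 higher (465 to 659 CPM and 528 to 647 CPM). Of the adipocyte list 2 genes could be tested, 1 higher and 1 lower, with sums of 5.54 to 43.9 CPM on LD and 2.49 to 3.49 CPM on CD and 2 of its genes at 0 counts. Both testable genes of the intestinal epithelium list were higher (350 to 396 CPM and 195 to 259 CPM). Of the circadian clock list, 3 of 15 were lower on LD, and none was higher. Across the 10 mice, after the diet means were subtracted, the log2 CPM of Cyp7a1 ran most closely with Fubp3, Fam47e, Zfp992, Fam189a2 and Tspan4 (Pearson r 0.911 to 0.936), and that of Cyp8b1 with Rabif, Pi4k2a, Pnpla7, Coq7 and A930005H10Rik (r 0.924 to 0.948), the highest of all tested genes and given as a description only.

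H3K27ac peaks, which the authors called as broad intervals in each liver, lay over the start of all 10 genes. Of the 43 member loci seen in at least 2 livers, 31 had a peak in all 6. The windows of 2 members, Cyp7b1 and Slc10a1, had less coverage in all 3 LD livers than in all 3 CD livers, and none had more. Of all 19138 gene windows with any peak, 5.51% had less coverage on LD in this sense and 21.4% more. Peaks covered 150 to 160 Mb of the genome in the LD livers and 140 to 145 Mb in the CD livers. With 1 liver left out, separation is easier for every window. Lower coverage on LD was then found for 5 members without LD replicate 1 (10.3% of all windows) and for 5 without CD replicate 2 (8.11%). Higher coverage was found for 1 without CD replicate 2 (29.9% of all windows) and for 2 without CD replicate 3 (25.8%). The number with separated windows in either direction was 5, 6 and 4 in these 3 cases, and 1 when only 20 kb on either side of the start was read. For that last setting the share over all windows was not computed. No test was made, since an exact permutation test of 3 against 3 cannot go below p = 0.1. Coverage of the Cyp8b1 window was 72.9%, 75.8% and 72.9% in the LD livers and 72.5%, 72.5% and 72.9% in the CD livers, and the diets were tied at the margin. Coverage of the Cyp27a1 window was 35.1%, 33.9% and 30.4% on LD, against 43.5%, 34.8% and 48.8% on CD, and CD replicate 2 lay below the highest LD liver. Cyp7a1 was covered to 41.3% ± 5.67 on LD and 45.5% ± 6.52 on CD (SD, n = 3), and Fgfr4, with the least coverage after Cyp7b1, to 18.8% ± 0.664 and 17.1% ± 3.81 (SD, n = 3). Of the 43 loci, 1 (in the Cyp7b1 intron, above) had a peak in all CD and no LD livers, against 0.757% of all loci, and 0 had the reverse, against 3.13%.

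**Figure D3:**
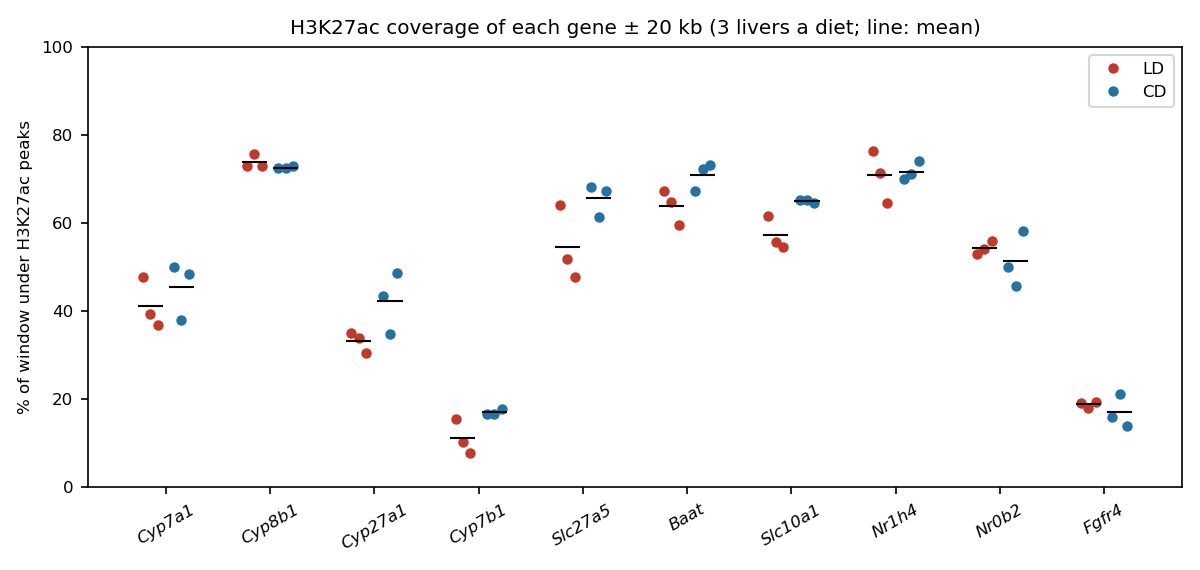
Share of each gene with 20 kb on either side that lay under H3K27ac peaks in each liver (red, LD; blue, CD; 3 livers a diet; black lines, means). For Cyp7b1 and Slc10a1 the 3 CD livers lie above the 3 LD livers, and for the other 8 genes the diets overlap.

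Within 20 kb of the members, 75 Hnf4α loci were seen in at least 2 samples and 46 in all 4. By limma on log2 peak height, 0 of the 46 were called (0% of 23344 loci fitted), 1 had an unadjusted p under 0.05 (610 of all loci), and edgeR on the tag counts called 2 (1576 of all 23344 loci), as did limma with the sample medians set equal (1284 of all). Those 2, an Hnf4α peak 14546 bases upstream of Cyp27a1 in an exon of Ttll4 and one 15723 bases upstream of Slc27a5, had log2 fold changes of 1.02 and 1.25 in limma (adjusted p = 0.99979). They had 100 and 69.0 normalized tags on LD against 26.8 and 62.8 on CD, and 25.2 and 26.8 against 8.50 and 14.0. Both LD samples were above both CD samples at 4 of the 46 loci, against 16.6% of all loci, and below them at 0, against 2.62%. A peak in both LD and no CD samples was found at 3 of the 75 loci (7.49% of all loci), and the reverse at 2 (3.96%).

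C/EBPα loci numbered 65 in at least 2 samples and 34 in all 4. At 22 of the 34 both LD samples were lower than both CD samples, against 46.4% of all 13813 loci, and at 1 they were higher, against 8.35%. The median log2 fold change was -0.65 over the 34 loci and -0.41 over all, and C/EBPα CD replicate 1 had the highest median (37.5 against 24 to 25.5 at the fitted loci). With the sample medians set equal, the medians were -0.34 and -0.10. Limma called 1 of the 34, the locus upstream of Cyp7b1 (2.15% of all loci were called lower on LD and 0.847% higher). With equal medians it called 5. The loci upstream of Cyp7b1 and Cyp27a1 and the one beyond the end of Slc10a1, all above, were lower on LD. So was one in an exon of Cyp7a1, 9845 bases downstream of its start (16 and 16.5 on LD, 56.0 and 23.0 on CD). The one in an intron of Nr1h4 (49.0 and 59.0 on LD, 53.5 and 32.0 on CD) was higher. The share of all called loci that were higher on LD moved with this scaling, from 117 of 414 to 1240 of 2644. A peak in both LD and no CD samples was found at 9 of the 65 loci (15.3% of all loci), 5 of them in the Cyp7b1 window, and the reverse at 1 (5.22%). Cebpa, which encodes the factor, had a log2 fold change of -0.26 (edgeR adjusted p = 0.0202), short of the fold of 1.2. This gene was named after its value was seen.

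**Figure D4:**
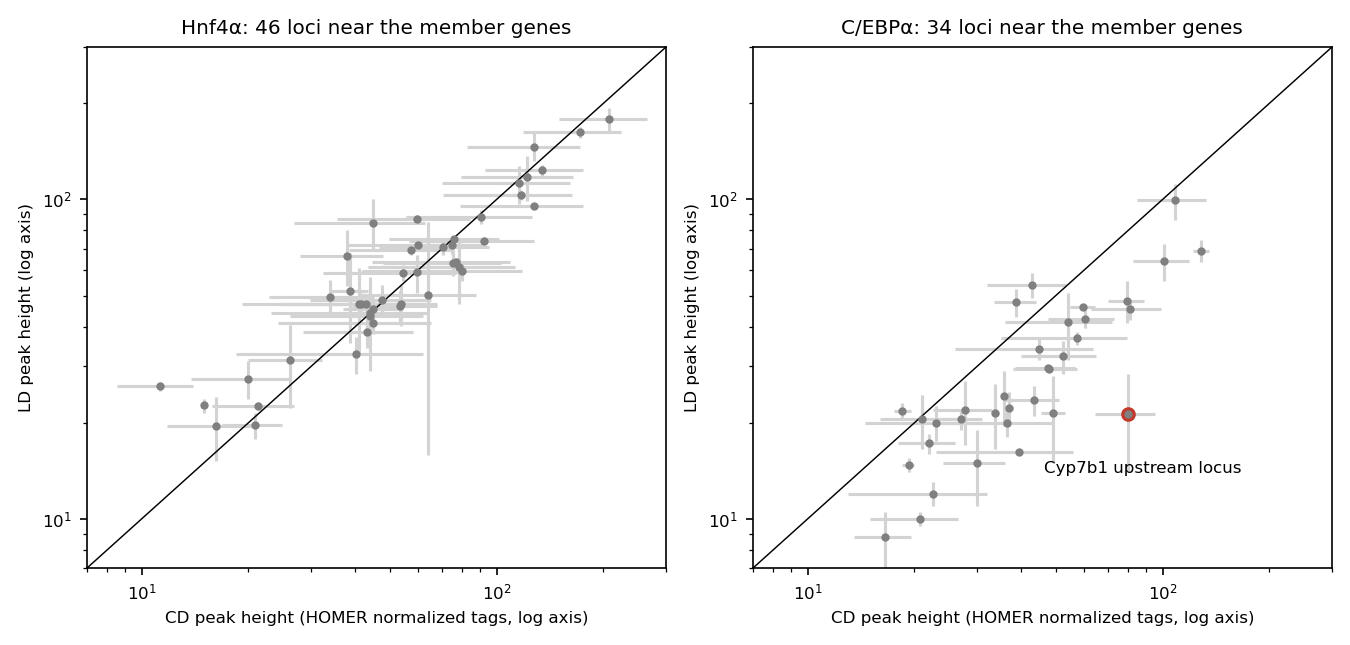
Peak heights of Hnf4α (left, 46 loci) and C/EBPα (right, 34 loci) near the 10 genes, CD on the x axis and LD on the y axis, as HOMER normalized tags on log axes; points are means of 2 samples, bars span both samples, and the line marks equal heights. Hnf4α points follow the line, most C/EBPα points lie below it, and the red point is the called locus upstream of Cyp7b1 (14.0 and 28.5 on LD, 95.0 and 64.5 on CD).

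The PCHi-C lists held 151203 interactions on LD and 149798 on CD, at a CHiCAGO score (confidence that a contact exceeds background) of at least 5 and a distance of at most 1 Mb. Replicates were pooled, so that no test was possible, and neighbouring fragments are not independent contacts. Of the 10 genes, 8 had a listed interaction, and Cyp8b1 and Nr0b2 had none on either diet. No bait of these 2 genes appears in the lists, so that whether their promoters were captured is not known here. The 8 baits had 84 interactions on LD and 150 on CD. Of these, 76 were on both lists, 90.5% of those on LD (69.8% over all baits) and 50.7% of those on CD (70.7% over all baits). The share on CD depended on the cutoff and the matching. Of the 37 CD interactions scoring at least 10, 33 were listed on LD. With fragments within 10 kb counted as the same, 123 of the 150 on CD and all 84 on LD were on both lists. Shares over all baits were not computed for these settings. Of the 76, 63 (82.9%) had the higher score on CD and 13 on LD, beside 51.7% higher on CD over all baits. The 13 belonged to Slc27a5 (6 of 18), Cyp7b1 (5 of 25) and Fgfr4 (2 of 3). At least 1.5 times as many interactions on CD as on LD were listed for 5 members, Cyp7a1, Cyp7b1, Nr1h4, Slc10a1 and Baat, and the reverse for none. Over all 17705 baits, 21.6% had at least 1.5 times as many on CD and 27.5% as many on LD. At a score of at least 7 on both lists, a minimum set after the data were seen, all 8 members had more interactions on CD (84 against 40 in all). So had 37.2% of the 13353 baits listed at that score. The numbers on CD and LD were 33 and 13 for Cyp7b1 and 24 and 15 for Nr1h4. Cyp27a1, Fgfr4, Baat and Slc10a1 each differed by only 1 interaction.

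The Cyp7b1 bait (chr3:18141266-18152294), which holds the start and the called C/EBPα locus, had 31 interactions on LD and 60 on CD. Among the 8524 baits with at least 10 interactions over both lists, 12.8% had at least 1.5 times as many on CD and 16% on LD. All lay upstream. Between 173 and 232 kb, 14 were listed on CD and 1 on LD, with top scores of 17.65 and 5.48. Between 368 and 488 kb the numbers were 15 and 16, and between 513 and 714 kb 16 and 3. Between 793 and 922 kb, 15 were listed on CD and 11 on LD, with top scores of 24.85 and 15.93. At the fragment 182 kb upstream (chr3:18328172-18329137), whose score was 17.65 on CD and 5.48 on LD, H3K27ac peaks covered 55.6%, 0% and 0% in the LD livers and 100%, 97.0% and 100% in the CD livers. The neighbouring fragment (chr3:18326080-18328068), listed on CD only with a score of 12.90, was covered to 0% in all 3 LD livers and to 3.42%, 66.4% and 100% in the CD livers. An Hnf4α peak in the former had heights of 58.5 and 47.8 on LD, against 48.0 and 97.2 on CD, which overlap. Of the 18 fragments contacted by Cyp7b1 with any H3K27ac, 3 had less coverage in all LD than in all CD livers and 0 had more (3.24% and 7.70% of all fragments in the lists).

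The Nr1h4 bait (chr10:88988407-88996349) ended 18 bases short of the annotated start. It had 21 interactions on LD, all also on CD, where 38 were listed, and each of the 21 had the higher score on CD. The strongest reached 95 to 104 kb upstream, with top scores of 29.21 on CD and 17.63 on LD, on fragments covered by H3K27ac. Of the 33 fragments with any H3K27ac, 1 had less coverage in all LD livers and 0 had more.

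The Cyp7a1 bait, which holds the annotated start, had 4 interactions on LD, all also on CD, where 13 were listed. Each of the 4 had the higher score on CD, and the top scores were 9.69 on CD and 5.97 on LD. Apart from 1 fragment 81.9 kb upstream, all lay 12.7 to 55.8 kb beyond the bait on the side of the gene body. None of the 11 Cyp7a1 fragments with any H3K27ac had diets apart. One of them, listed on CD only with a score of 7.55, held an Hnf4α peak 29353 bases downstream of the start, with heights of 128 and 97.0 on LD, against 70 and 160.5 on CD.

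The Slc10a1 bait had 3 interactions on LD and 5 on CD. The fragment 222 kb upstream scored 7.52 on LD and 13.82 on CD. The 2 fragments listed on CD only, 209 and 218 kb upstream, were covered by H3K27ac to 30.6%, 30.6% and 0%, and to 80.8%, 86.5% and 83.7%, in the LD livers, and to 100% in all 3 and to 98.0%, 98.0% and 100% in the CD livers. The diets did not overlap at either. Slc27a5 had 19 interactions on LD and 27 on CD, with 18 on both. Of its 16 fragments with any H3K27ac, 1, listed on LD only with a score of 5.63, had less coverage on LD (3.50%, 0% and 0% against 8.76% in all 3 CD livers). Baat had 2 and 3, the strongest to the neighbouring promoter of Acnat1 (15.64 on LD and 17.89 on CD). Cyp27a1 had 1 on each diet, to the bait of Dnpep (6.69 and 8.14), and Fgfr4 had 3 on each. Of the 2 Fgfr4 fragments with any H3K27ac, 1, 371 kb upstream with scores of 5.68 on LD and 5.10 on CD, had more coverage on LD (16.9%, 22.3% and 33.1% against 16.2% in all 3 CD livers).

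**Figure D5:**
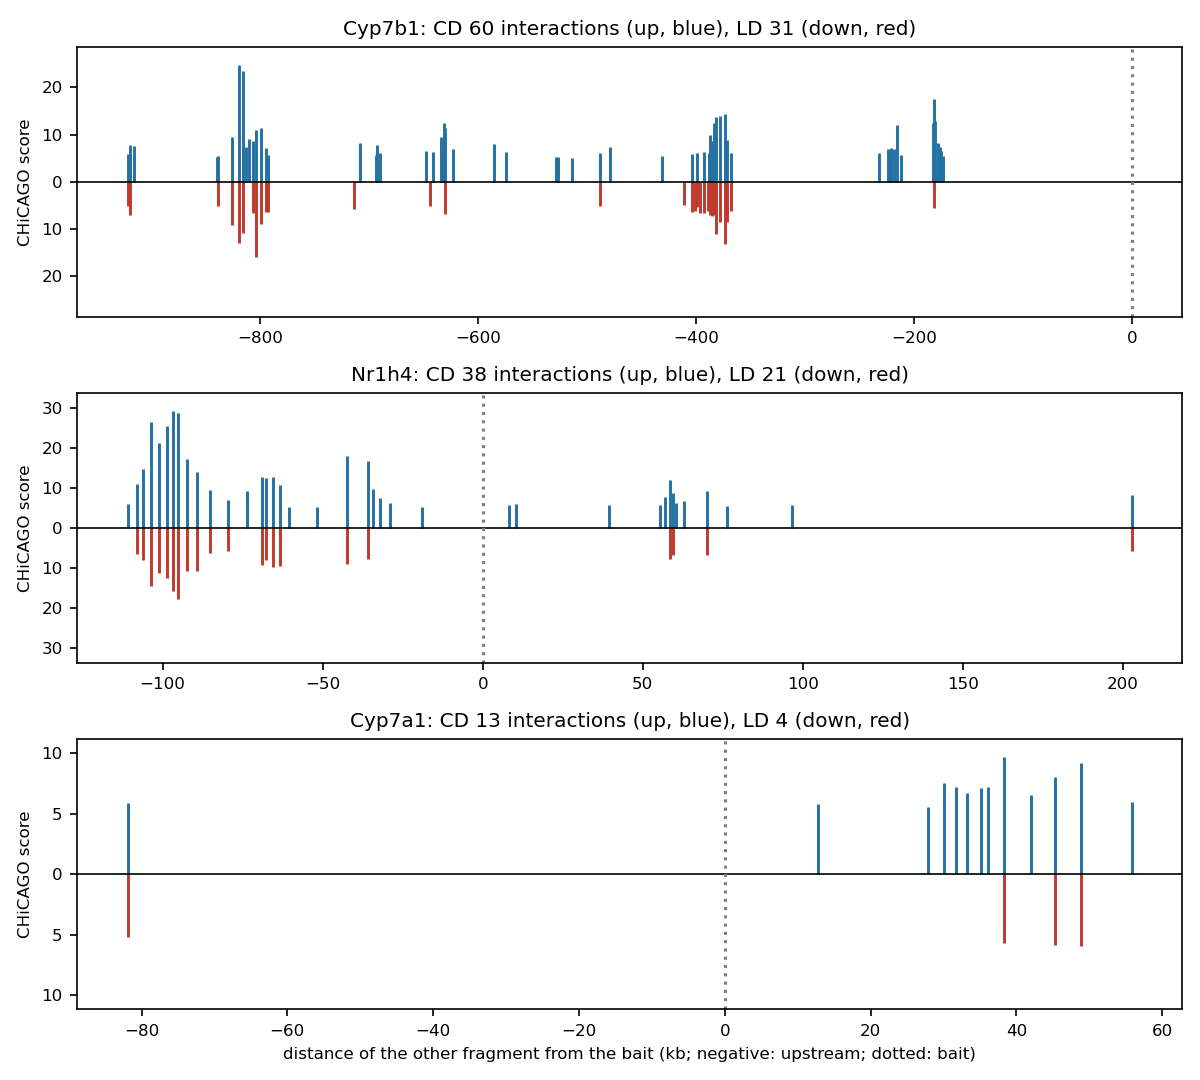
Interactions of the Cyp7b1, Nr1h4 and Cyp7a1 baits: x axis, distance of the other fragment from the bait in kb, negative upstream; y axis, CHiCAGO score, drawn upwards for CD (blue) and downwards for LD (red). CD lists 60, 38 and 13 interactions and LD 31, 21 and 4, and the Cyp7b1 cluster 173 to 232 kb upstream has 14 on CD and 1 on LD.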

How the data were processed

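RNA-seq read pairs were counted per gene by the authors (STAR 2.5, featureCounts 1.5.0-p1, mm9, as the submitters' processing notes and the methods give them) and deposited as raw counts, with TPM values beside them. The same table holds the authors' log2 fold changes and adjusted p-values, which were not used. The authors aligned ChIP reads with Bowtie 0.12.8 and removed duplicates with Picard 1.110. The deposited H3K27ac files hold SICER intervals. The deposited Hnf4α and C/EBPα files hold HOMER peaks per sample with a normalized tag count (signal, here peak height), tag counts and a fold over input (ratio). The deposited PCHi-C lists hold CHiCAGO scores of at least 5 at up to 1 Mb, replicates pooled. Files of topological domains were not used.

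Counts were fitted with edgeR 4.0.16 (R 4.3.3; TMM, filter on low counts, robust quasi-likelihood test, common BCV 0.147), with DESeq2 1.42.0 and limma 3.58.1 on log2(TPM + 1) and log2(TPM + 0.1) as alternatives. Peaks were merged into loci, and log2 heights at loci with a peak in all 4 samples were fitted with limma. Loci within 20 kb of a gene were assigned to it. Calls needed an adjusted p under 0.05 over all features tested and a fold above 1.2. On simulated data, edgeR recovered 193 of 194 changed genes with 9 false calls over 13422 genes, and limma recovered 110 of 200 loci changed 4-fold at Hnf4α (5 false calls) and 197 of 200 at C/EBPα (5 false calls). All 10 members were named. From the other lists, at most the 4 called genes with the lowest adjusted p were named, with Abcb11, Nr5a2, Hnf4a, Klb, Hsd3b7 and Cyp2c70 whatever their values. Cebpa, Spp1, Krt19, Krt7 and Sox9 were named after their values were seen. The members and lists were chosen with earlier results of these data known. The labels number replicates without tying them to other assays, so p-values measure the spread between these samples. Sequences were read with pysam 0.24.0 from the mm9 genome. Alternatives changed the scaling, filter, tool, window, score minimum and libraries.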

Additional observations from a re-analysis of the deposited data

How the results depend on the processing

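Of the 10 genes, 4 were called between the diets, 2 in the test of a fold above 1.2 (Cyp7b1 and Slc10a1), and 3 to 5 when 1 library was left out. With the replicate number as a block, 4 were called, Cyp8b1 being lost (edgeR adjusted p = 0.0639) and Fgfr4 gained (adjusted p = 0.0412). Replicate numbers did not pair the samples (correlations of same-numbered RNA samples -0.07 to 0.19, 1 of 5 highest with its own number). The log2 fold change of Baat turned to 0.044154 on log2(TPM + 1) and 0.044287 on log2(TPM + 0.1) and ran from -0.067 to 0.022 when 1 library was left out (highest without CD replicate 3), and that of Nr0b2 ran from -0.24 to 0.01 (0.013 without LD replicate 1). The cause was not tested. Hnf4α loci called were 0, with 2 when sample medians were set equal, 2 with edgeR on tag counts, 0 with the replicate block and 0 to 0 when 1 sample was left out. C/EBPα loci called were 1, with 5 when medians were set equal, 6 with edgeR (4 lower and 2 higher on LD, where edgeR called 2536 of all 13813 loci), 1 with the replicate block, 0 when 1 sample was left out, and 0 among the 5 loci at least 2 times as high as the median. Members with separated H3K27ac coverage were 2, or 1 in a window around the start, and 2 to 6 when 1 liver was left out. Interactions on both diets were 76, 16 of 16 LD interactions scoring at least 10, 33 of 37 such CD interactions, and 123 of 150 on CD when fragments within 10 kb counted as the same. edgeR on tag counts and the score of at least 7 were added after the data were seen. With 2 samples a diet, the Hnf4α fit recovered 110 of 200 simulated 4-fold changes and the C/EBPα fit 197 of 200, and smaller ones were not simulated. The simulated spread was independent at each locus, whereas the Hnf4α samples differed in median height (21.5 to 42.8). These recoveries therefore need not give the power of the fits used.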
